A study of Danio rerio with 4 samples.

Results

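The eyes of lrp5-/- zebrafish were set against the eyes of eys-/- zebrafish, the comparison between the homozygous mutants of the series. Each genotype was measured on 1 Affymetrix array, and the values are log2 RMA signals, which are probe set intensities put on a common scale across the arrays, so that a difference of 1 is a 2-fold difference. A gene was counted as measured where its signal on lrp5-/- or eys-/- eyes reached 6.57, the median value of the probe sets with 1 gene symbol. Of 19260 named genes, 10446 were measured, and 149 of them (1.43%) differed by 2-fold or more between the arrays. In lrp5-/- eyes 96 genes were higher (0.919% of measured genes) and 53 were lower (0.507%) than in eys-/- eyes. These shares stand beside each count of 2-fold genes in a list or family below. These 149 genes are described here by function, and every difference is lrp5-/- minus eys-/-.

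The arrays held RNA of whole eyes of Danio rerio at 3.5 months post-fertilisation, from fish of both sexes kept at 28.5 °C in 14 h of light and 10 h of dark. There was 1 array of lrp5-/- homozygotes, 1 of eys-/- homozygotes, 1 of double heterozygotes (eys+/-; lrp5+/-) and 1 of Wildtype fish. The alleles, the number of fish behind an array and the hour at which eyes were taken are not given in the sources used here. With 1 array a genotype there is no replicate error, so no difference carries a test, and genotype cannot be told apart from anything else in which the samples of fish differed.

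The eys gene encodes an extracellular protein found around the photoreceptor cilium, and mutations in human EYS cause retinitis pigmentosa. The lrp5 gene encodes a co-receptor for Wnt and Norrin ligands that human retinal vessels need for normal growth, and mutations in LRP5 cause familial exudative vitreoretinopathy. In zebrafish most tissues, the eye included, hold a circadian clock that light can set directly: the activators Clock and Bmal drive the period, cryptochrome and Rev-erb genes, whose products act back on them. The same daily cycle is known to reach photoreceptor genes, among them opsins and regulators of phototransduction.

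Most genes read nearly alike in both homozygotes. The median difference over the 10446 measured genes was 0.01 on the log2 scale, the 5th percentile was -0.40 and the 95th percentile 0.50, and 50.9% of measured genes were higher in lrp5-/- eyes. The spread of the differences over genes, as a robust SD, was 0.217, which describes genes on 2 arrays and is not an error of replicates. Double heterozygote and lrp5-/- eyes differed 2-fold in 61 genes, the fewest of the 6 pairs of arrays, and double heterozygote and eys-/- eyes in 228, the most. Of 102 cell type markers, 91 were on the array and 76 were measured. They covered 15 cell types of the eye, including rods, cones, inner retinal neurons, Muller glia, pigment epithelium, lens and cornea. Of the red cell markers on the array 1 of 4 was measured, and of the leukocyte markers 3 of 7. Of the 76 measured markers, 1 was 2-fold higher (cryba1b, lens) and 2 were 2-fold lower (opn1lw1, cone, and epcam, surface epithelium) in lrp5-/- eyes. The share of all measured genes that differed by 2-fold was 1.43%.

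The mutated genes themselves gave little check of the labels. The 1 probe set of lrp5 read 7.17 in lrp5-/- eyes, 7.27 in eys-/- eyes, 6.92 in double heterozygote eyes and 7.39 in Wildtype eyes, a difference of -0.10. A point mutation or small deletion need not lower the signal of a probe set, and no probe set was named eys in the annotation used here. Along the gene order of the RefSeq table, 0 of the 100 measured genes nearest to eys were 2-fold genes. Nearest to lrp5, 2 of 100 were, beside 1.43% of all measured genes. Those 2 were cry2 and guca1g, both higher in lrp5-/- eyes and both outside the nearest 50.

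**Figure D1:**
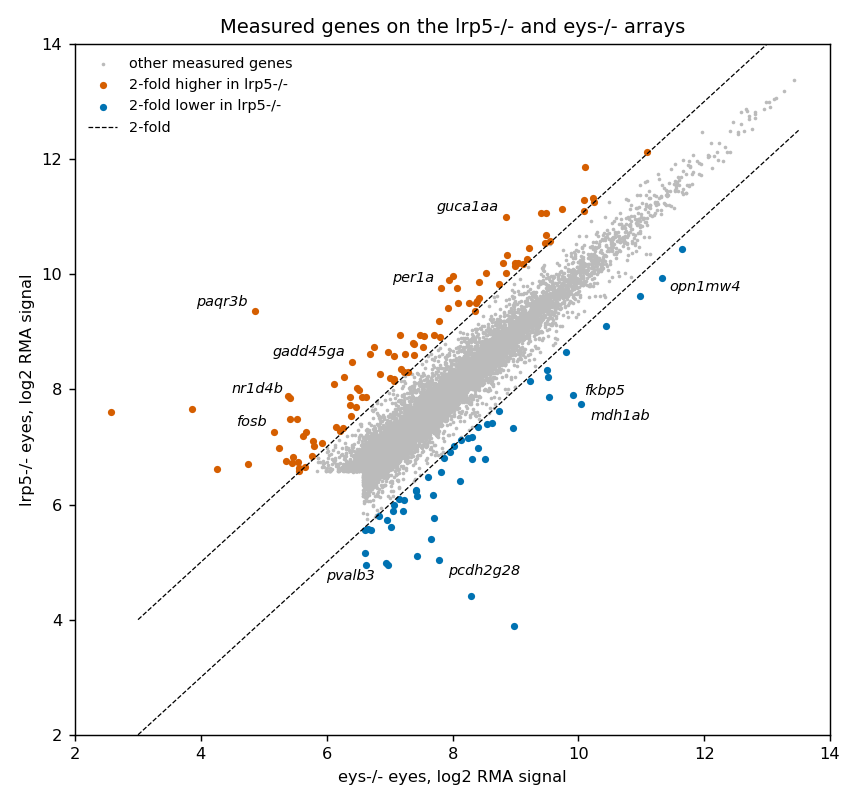
Log2 RMA signal of each measured gene in lrp5-/- eyes (vertical axis) against eys-/- eyes (horizontal axis), with 1 array each. Dashed lines mark 2-fold, and the 96 genes 2-fold higher and 53 genes 2-fold lower in lrp5-/- eyes are coloured; some of the largest differences are named.

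The place of the other arrays is partly set by the choice of genes, since a wide gap between lrp5-/- and eys-/- leaves more room between them. Wildtype lay between lrp5-/- and eys-/- for 83 of the 96 higher genes and for 44 of the 53 lower genes, beside 38.3% of all measured genes. Against Wildtype, which serves as the shared array of both comparisons, 70 of 10426 genes (0.671%) were 2-fold different in lrp5-/- eyes and 66 of 10435 (0.632%) in eys-/- eyes. Of the 149 genes, 47 were 2-fold from Wildtype in lrp5-/- eyes and 34 in eys-/- eyes, while 75 were under 2-fold from Wildtype in both homozygotes. The median difference from Wildtype of the 96 higher genes was 0.74 in lrp5-/- eyes and -0.66 in eys-/- eyes, and that of the 53 lower genes was -0.75 in lrp5-/- eyes and 0.58 in eys-/- eyes. The eys-/- array was the lowest of the 4 for 84 of the higher genes and the highest of the 4 for 48 of the lower genes. Of all measured genes higher in lrp5-/- than in eys-/- eyes by any amount, eys-/- was the lowest of the 4 for 58.2%, and of all those lower it was the highest for 53.9%. The double heterozygote was nearer to lrp5-/- than to eys-/- for 74 of the 96 higher and 35 of the 53 lower genes, beside 61.0% of all measured genes.

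Circadian clock genes were mostly higher in lrp5-/- eyes. Of 26 repressors and output factors of the circadian clock that were measured, 12 were 2-fold higher and none 2-fold lower in lrp5-/- eyes. Among all measured genes 0.919% were 2-fold higher and 0.507% 2-fold lower. The median difference of the 26 was 0.85, beside 0.01 over all measured genes. The Rev-erb genes encode nuclear receptors that repress Bmal. Of these, nr1d4b read 7.85 in lrp5-/- eyes, 5.42 in eys-/- eyes, 8.82 in double heterozygote eyes and 6.40 in Wildtype eyes, a difference of 2.43. Its eys-/- reading lay near the median of all probe sets on that array, 5.06, so the size of this difference is uncertain. The paralogue of nr1d4b, nr1d4a, read 8.22 in lrp5-/-, 6.28 in eys-/-, 9.01 in double heterozygote and 7.13 in Wildtype eyes, a difference of 1.94. The third, nr1d1, read 12.12 in lrp5-/-, 11.08 in eys-/-, 12.23 in double heterozygote and 11.64 in Wildtype eyes, a difference of 1.03. All 3 had the same order, with the double heterozygote highest and eys-/- lowest, whereas nr1d2a (-0.33) and nr1d2b (0.12) stayed under 2-fold.

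The period genes, whose proteins close the negative loop of the clock, were 2-fold higher in lrp5-/- eyes in 3 of 4 cases. The share of all measured genes that were 2-fold higher was 0.919%. Signals of per1a were 9.77 in lrp5-/-, 7.82 in eys-/-, 10.63 in double heterozygote and 8.75 in Wildtype eyes, a difference of 1.95. Signals of per1b were 10.20 in lrp5-/-, 8.80 in eys-/-, 10.58 in double heterozygote and 9.81 in Wildtype eyes, a difference of 1.40. For per2, which light induces in zebrafish, the chosen probe set read 10.57 in lrp5-/-, 9.55 in eys-/-, 10.11 in double heterozygote and 10.03 in Wildtype eyes, a difference of 1.02, but its other probe set read 9.71 in lrp5-/- and 9.70 in eys-/- eyes. The call of per2 thus rests on 1 of its 2 probe sets, and lrp5-/- was the highest array for per2, the double heterozygote for per1a and per1b. The remaining family member, per3, named after its values were seen, read 11.32 in lrp5-/-, 11.14 in eys-/-, 11.25 in double heterozygote and 11.36 in Wildtype eyes, a difference of 0.18.

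Cryptochromes split. The repressor cry2 read 11.06 in lrp5-/-, 9.49 in eys-/-, 11.32 in double heterozygote and 10.15 in Wildtype eyes, a difference of 1.58. In the other direction, under 2-fold, cry3a read 10.35 in lrp5-/-, 11.13 in eys-/-, 9.51 in double heterozygote and 10.83 in Wildtype eyes, a difference of -0.78. Ciarta and ciartb, homologues of the mammalian repressor Ciart (Chrono), were higher by 1.95 and 1.44. Signals of ciarta were 9.90 in lrp5-/-, 7.94 in eys-/-, 10.24 in double heterozygote and 8.79 in Wildtype eyes. A further 3 regulators were 2-fold higher: bhlhe41 (1.47), a basic helix-loop-helix repressor of the clock, cipca (1.46), whose mammalian homologue binds Clock, and dbpb (1.40), a PAR bZIP output factor. Of these, cipca stands outside the list of 26 genes, while cry5, described below, is in it. In the whole list eys-/- was the lowest of the 4 arrays for 21 of 26 genes, beside 29.6% of all measured genes. Those 21 were all the list members higher in lrp5-/- eyes. Of all measured genes higher there by any amount, the share was 58.2%.

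In the activating arm of the clock, 2-fold differences ran the other way. Of 16 activators and related factors measured, 2 were 2-fold lower in lrp5-/- eyes, beside 0.507% of all measured genes, and none was 2-fold higher. Their median difference was -0.03. The related factors are nfil3 and casein kinase genes, among them nfil3-2 at 0.62, so this median is not that of activators alone. The partner of Clock, bmal1a, read 5.61 in lrp5-/-, 7.02 in eys-/-, 4.83 in double heterozygote and 7.06 in Wildtype eyes, a difference of -1.41. The Ror nuclear receptor rorcb read 7.35 in lrp5-/-, 8.41 in eys-/-, 7.04 in double heterozygote and 8.55 in Wildtype eyes, a difference of -1.06. Both genes had the double heterozygote lowest, lrp5-/- next, and eys-/- close to Wildtype. The double heterozygote reading of bmal1a lay below the median of all probe sets on that array, 5.04. The second Bmal gene, bmal1b, stood just under the threshold at -0.97, and npas2, a paralogue of Clock, at -0.56. Named after their values were seen, clocka (-0.39) and clockb (-0.48) were also below 0. The Ror genes rorb (0.24), roraa (0.08) and rorab (0.03) were above 0.

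**Figure D2:**
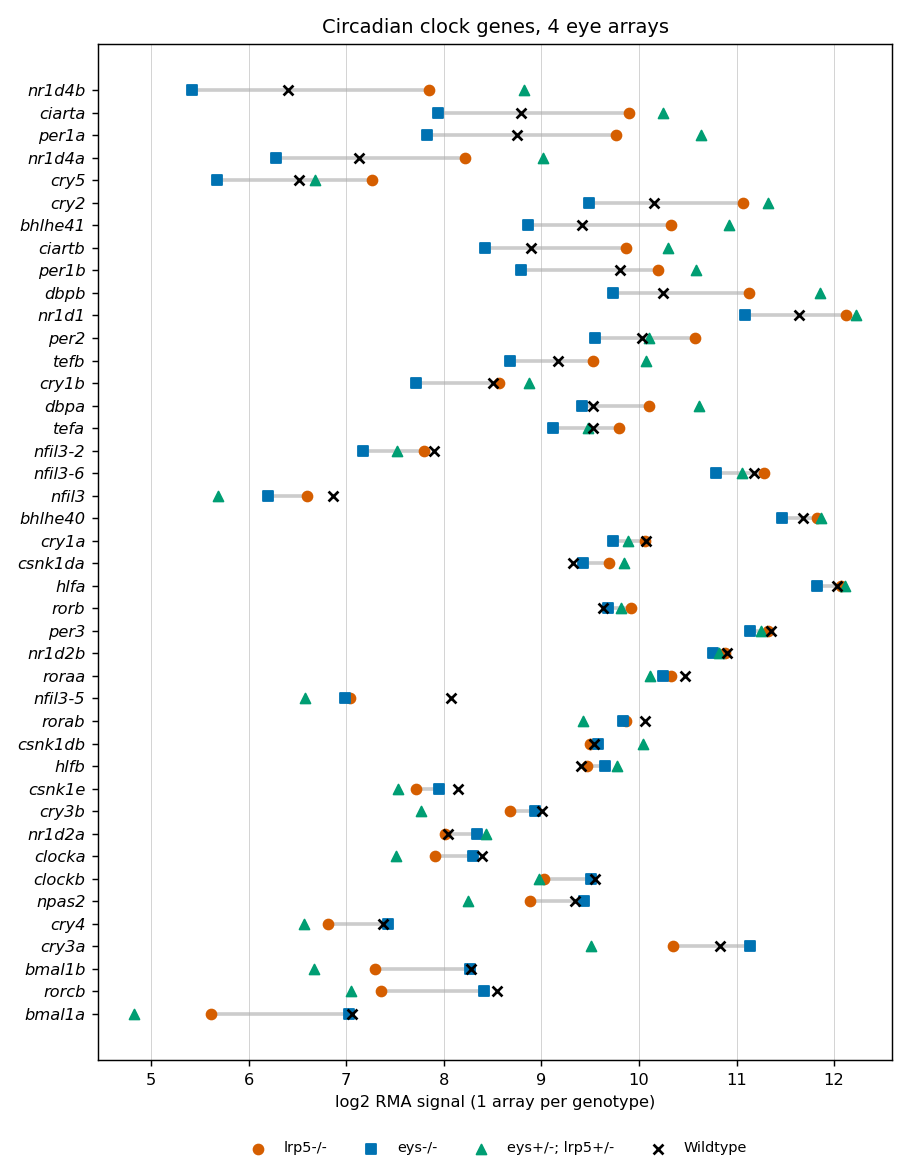
Log2 RMA signal of the measured circadian clock genes on the 4 eye arrays, 1 array per genotype, with a grey bar joining lrp5-/- and eys-/-. For most repressors and output factors lrp5-/- lies right of eys-/-, and for bmal1a and rorcb it lies left of it.

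Both genes of the photolyase branch of the cryptochrome family that passed 2-fold were higher. The (6-4) photolyase gene cry5, whose product repairs ultraviolet damage and which is also counted in the clock list above, read 7.26 in lrp5-/-, 5.68 in eys-/-, 6.68 in double heterozygote and 6.51 in Wildtype eyes, a difference of 1.59. Signals of cry-dash were 8.62 in lrp5-/-, 7.24 in eys-/-, 7.63 in double heterozygote and 7.91 in Wildtype eyes, a difference of 1.38. Here lrp5-/- was the highest of the 4 arrays and eys-/- the lowest.

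Immediate early genes, which cells transcribe within minutes of a stimulus, were higher in lrp5-/- eyes wherever they passed 2-fold. Of 46 measured, 9 were 2-fold higher in lrp5-/- eyes, beside 0.919% of all measured genes, and none was 2-fold lower. Of the same 46, 38 were above 0 (82.6%, beside 50.9% of all measured genes), and the median difference was 0.56. Fos proteins are subunits of the transcription factor AP-1. Signals of fosab were 9.98 in lrp5-/-, 8.01 in eys-/-, 8.35 in double heterozygote and 8.01 in Wildtype eyes, a difference of 1.97. Signals of fosb were 7.26 in lrp5-/-, 5.16 in eys-/-, 4.97 in double heterozygote and 5.50 in Wildtype eyes, a difference of 2.11. For both Fos genes lrp5-/- stood alone, with the other 3 arrays close together. For fosb those 3 lay near the median of all probe sets (5.06 in eys-/-, 5.04 in double heterozygote and Wildtype eyes). The size of its difference is therefore uncertain.

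Some other members of the group put the double heterozygote close to lrp5-/-. It was nearer to lrp5-/- than to eys-/- for 5 of the 9 genes, beside 61.0% of all measured genes. The growth arrest gene gadd45ga read 8.48 in lrp5-/-, 6.40 in eys-/-, 8.27 in double heterozygote and 6.0 in Wildtype eyes, a difference of 2.08. The neuronal activity-dependent factor npas4a read 7.19 in lrp5-/-, 5.62 in eys-/-, 7.12 in double heterozygote and 5.61 in Wildtype eyes, a difference of 1.57. The zinc finger factor egr1 read 10.02 in lrp5-/-, 8.52 in eys-/-, 9.92 in double heterozygote and 9.08 in Wildtype eyes, a difference of 1.5. In these 3 genes the arrays fell into a high pair, lrp5-/- and double heterozygote, and a low pair, eys-/- and Wildtype. The remaining 4 were the Kruppel-like factors klf2b (1.17) and klf11b (1.09) and the MAP kinase phosphatases dusp1 (1.08) and dusp5 (1.01). For klf2b the double heterozygote stood with eys-/- (7.25 and 7.18), and likewise for dusp1 (7.24 and 7.22). Among those lower in lrp5-/- eyes, chosen after their values were seen, jun differed by -0.72 and klf2a by -0.68.

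**Figure D3:**
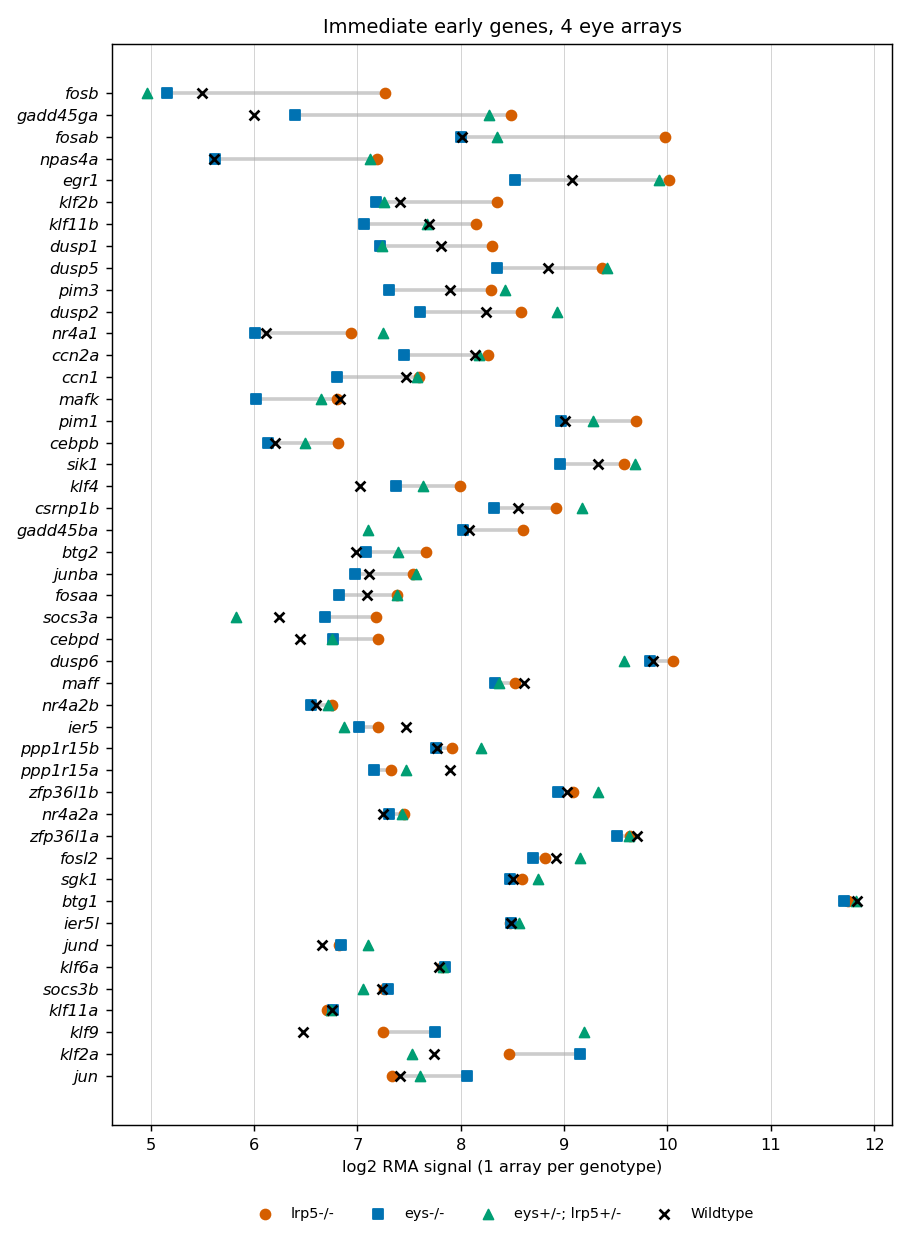
Log2 RMA signal of the 46 measured immediate early genes on the 4 eye arrays, 1 array per genotype, ordered by the difference between lrp5-/- and eys-/-. For fosb and fosab the lrp5-/- array lies apart from the other 3, and for gadd45ga, npas4a and egr1 the double heterozygote lies near lrp5-/-.

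Phototransduction genes differed in both directions, 4 higher and 6 lower in lrp5-/- eyes. Of these 10, 4 belong to the guca1 family of guanylate cyclase-activating proteins, which speed the recovery of the photoreceptor after light by restoring cyclic GMP. Signals of guca1aa were 11.00 in lrp5-/-, 8.84 in eys-/-, 11.24 in double heterozygote and 9.77 in Wildtype eyes, a difference of 2.16. Signals of guca1g were 8.94 in lrp5-/-, 7.17 in eys-/-, 8.97 in double heterozygote and 7.83 in Wildtype eyes, a difference of 1.78. The copy guca1ab.2 was higher too, with 8.81 in lrp5-/-, 7.37 in eys-/-, 9.31 in double heterozygote and 8.10 in Wildtype eyes, a difference of 1.43. These 3 genes had the double heterozygote highest and eys-/- lowest. The neighbour of the last in name in name, guca1ab.1, read the opposite way, with 7.86 in lrp5-/-, 9.53 in eys-/-, 7.11 in double heterozygote and 9.07 in Wildtype eyes, a difference of -1.67. Of the 7 guca1 genes measured, 3 were thus 2-fold higher and 1 was 2-fold lower, beside 0.919% and 0.507% of all measured genes. The others, guca1c (0.44), guca1d (0.21) and guca1b (-0.12), named after their values were seen, stayed under 2-fold. Near-identical copies may share hybridisation, so values of guca1ab.1 and guca1ab.2 are less certain as values of single genes.

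Of 8 visual opsins measured, 3 cone opsins for green and red light were 2-fold lower in lrp5-/- eyes, beside 0.507% of all measured genes. None was 2-fold higher. The green opsin opn1mw4 read 9.93 in lrp5-/-, 11.33 in eys-/-, 10.28 in double heterozygote and 10.80 in Wildtype eyes, a difference of -1.39. Another green opsin, opn1mw3, read 8.21 in lrp5-/-, 9.51 in eys-/-, 8.18 in double heterozygote and 8.91 in Wildtype eyes, a difference of -1.30. The red opsin opn1lw1 read 10.43 in lrp5-/-, 11.64 in eys-/-, 11.38 in double heterozygote and 11.19 in Wildtype eyes, a difference of -1.21. Each of the 3 was highest in eys-/- eyes, as were 48 of the 53 lower genes. These opsins too come from tandem families of close copies. The ultraviolet opsin opn1sw1 (-0.02), the blue opsin opn1sw2 (-0.27), opn1mw1 (0.24) and opn1lw2 (-0.48), named after their values were seen, did not reach 2-fold. The non-visual opsin opn6b read 6.41 in lrp5-/-, 8.12 in eys-/-, 7.29 in double heterozygote and 7.61 in Wildtype eyes, a difference of -1.71. Of the rhodopsin kinase genes, grk1b was lower with a difference of -1.15, while the cone cyclic nucleotide-gated channel subunit cnga3a was higher with 1.07.

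The medians of the whole photoreceptor lists were close to that of all measured genes. Of 27 rod genes measured, 1 was 2-fold higher (guca1aa) and none 2-fold lower, with a median of -0.08. Of 31 cone genes, 2 were higher and 4 lower (beside 0.919% and 0.507% of all measured genes), with a median of -0.04. Of the 2-fold genes described above, guca1ab.2 (1.43), grk1b (-1.15) and opn6b (-1.71) stand in neither list. Summed on the linear scale and returned to log2, the 7 rod markers on the array gave 13.97 in lrp5-/-, 13.95 in eys-/-, 13.97 in double heterozygote and 13.96 in Wildtype eyes. The rod opsin gene rho was among the 9 rod markers chosen but not among these 7, so the rod sums leave it out. The 7 cone markers gave 14.79 in lrp5-/-, 14.92 in eys-/-, 14.85 in double heterozygote and 14.84 in Wildtype eyes, with opn1lw1 among them. In whole eyes fewer cells of a type and less RNA per cell cannot be told apart.

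**Figure D4:**
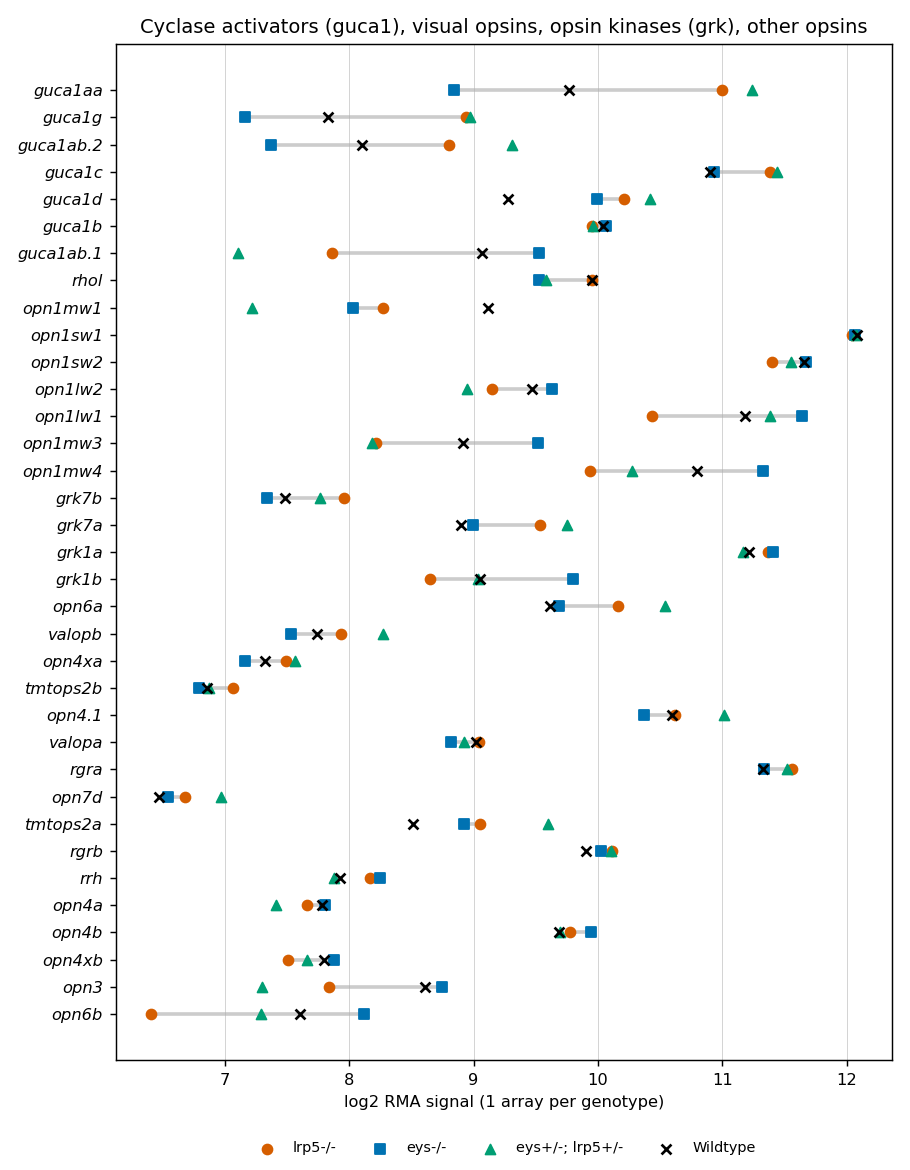
Log2 RMA signal of the measured guca1 genes, visual opsins, opsin kinase (grk) genes and other opsins on the 4 eye arrays, 1 array per genotype. A grey bar joins lrp5-/- and eys-/-. Differences of 2-fold or more run in both directions, with guca1aa and guca1g higher and guca1ab.1, opn1mw4, opn1mw3 and opn1lw1 lower in lrp5-/- eyes.

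The 10 other 2-fold genes placed by hand under photoreceptors and retinal neurons, after values were seen, were all higher in lrp5-/- eyes. Their common direction thus depends on the placement. The largest difference was that of ankrd33ab, whose mammalian homologue is a photoreceptor transcriptional repressor, with 11.06 in lrp5-/-, 9.40 in eys-/-, 10.97 in double heterozygote and 10.21 in Wildtype eyes, a difference of 1.66. The RNA-editing adenosine deaminase gene adarb1a read 9.42 in lrp5-/-, 7.93 in eys-/-, 9.33 in double heterozygote and 8.62 in Wildtype eyes, a difference of 1.49. Values for rdh8b, a retinol dehydrogenase of the visual cycle, were 10.17 in lrp5-/-, 9.12 in eys-/-, 10.52 in double heterozygote and 9.69 in Wildtype eyes, a difference of 1.05. Eyes of lrp5-/- fish and double heterozygotes were the high pair in these genes. The glutamate transporter gene slc1a2a was higher by 1.1, the calmodulin kinase kinase gene camkk1b by 1.17, and rpgra, homologous to the human retinitis pigmentosa GTPase regulator of the photoreceptor cilium, by 1.19. The adaptor gene samsn1b (1.40), csmd3a (1.33), the cortexin gene ctxn2 (1.07) and lrit1b (1.0), of a family of leucine-rich repeat proteins at photoreceptor synapses, completed the group. Of 167 synaptic genes measured, none was 2-fold different, beside 1.43% of all measured genes. Of 57 bipolar, amacrine, horizontal and ganglion cell genes, 1 was 2-fold higher and none lower, with a median of 0.03. Of 101 cilia and microtubule genes, 1 was 2-fold higher (rpgra) and 1 lower (ttll6, -1.19), with a median of -0.04.

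Hormone response and energy metabolism held 16 of the genes, 11 higher and 5 lower in lrp5-/- eyes. The co-chaperone fkbp5, a feedback regulator of the glucocorticoid receptor that glucocorticoids induce, read 7.90 in lrp5-/-, 9.92 in eys-/-, 9.97 in double heterozygote and 7.0 in Wildtype eyes, a difference of -2.02. The insulin receptor substrate irs2a read 8.33 in lrp5-/-, 9.51 in eys-/-, 9.94 in double heterozygote and 8.32 in Wildtype eyes, a difference of -1.18. In both genes the double heterozygote stood with eys-/-, unlike in the clock genes. A further glucocorticoid target, klf9, read 7.25 in lrp5-/-, 7.75 in eys-/-, 9.20 in double heterozygote and 6.47 in Wildtype eyes, a difference of -0.50. Of 28 glucocorticoid targets measured, 5 were 2-fold higher and 2 lower (beside 0.919% and 0.507% of all measured genes), with a median of 0.15. However, 4 of the 5 higher ones (per1a, per1b, cry2 and dusp1) also stand in the clock or immediate early list. The receptor gene itself, nr3c1, chosen after its value was seen, differed by -0.05.

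Among metabolic enzymes, the cytosolic malate dehydrogenase gene mdh1ab had the most negative difference, with 7.75 in lrp5-/-, 10.05 in eys-/-, 9.48 in double heterozygote and 8.88 in Wildtype eyes, a difference of -2.30. The glycolytic regulator pfkfb1 (-1.06) and the sterol transporter abcg4b (-1.15) were lower as well. In the higher direction, gch2, a GTP cyclohydrolase of pteridine synthesis, read 7.99 in lrp5-/-, 6.51 in eys-/-, 8.24 in double heterozygote and 6.01 in Wildtype eyes, a difference of 1.47. The pyruvate dehydrogenase kinase gene pdk2b was higher by 1.40 and the lipoprotein lipase inhibitor gene angptl4 by 1.23. The forkhead factor foxo1a, which insulin signalling holds out of the nucleus, was higher by 1.14 on its chosen probe set and by 1.23 on its other one. Further higher genes were pmm1 (1.23), a phosphomannomutase, arrdc3b (1.21), an arrestin-domain gene, socs2 (1.21), a suppressor of cytokine and growth hormone signalling, hmox2a (1.21), a haem oxygenase, elovl8a (1.16), a fatty acid elongase, irs4a (1.14), and ptgs2b (1.1), a cyclooxygenase. Wildtype was above lrp5-/- for arrdc3b, irs4a and ptgs2b, so for these 3 genes the eys-/- array alone was low. Of 97 oxidative phosphorylation genes measured, none was 2-fold different, beside 1.43% of all measured genes, and the median was -0.05.

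Lens genes held 3 of the differences. The gamma M crystallin gene crygm2e read 7.48 in lrp5-/-, 5.41 in eys-/-, 6.29 in double heterozygote and 6.74 in Wildtype eyes, a difference of 2.07. Its eys-/- reading lay near the median of all probe sets on that array, 5.06, so the size of this difference is uncertain. The beta crystallin gene cryba1b read 10.14 in lrp5-/-, 9.0 in eys-/-, 9.59 in double heterozygote and 9.39 in Wildtype eyes, a difference of 1.14. Lower was lctlb, a lactase-like gene whose mouse homologue is expressed in lens fibres, with 9.62 in lrp5-/-, 10.97 in eys-/-, 10.46 in double heterozygote and 10.69 in Wildtype eyes, a difference of -1.35. These 3 genes had no common direction. Of 30 crystallin genes 2 were 2-fold higher, beside 0.919% of all measured genes, and none lower, with a median of 0.11. Among the crystallins 21 were above 0 (70.0%, beside 50.9% of all measured genes). Of 25 lens fibre and membrane genes none was 2-fold different, with a median of -0.03. Gamma M crystallins are a large family of near-identical genes, so the signal of crygm2e may include its copies. The summed signal of the 7 lens markers was 14.09 in lrp5-/-, 13.96 in eys-/-, 14.09 in double heterozygote and 13.96 in Wildtype eyes. Its part in these differences was not tested.

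Extracellular matrix and chaperone genes were 4 higher and 4 lower. The actinodin gene and1, which encodes a structural protein of the fibres in fish fins, read 7.48 in lrp5-/-, 5.52 in eys-/-, 6.34 in double heterozygote and 6.64 in Wildtype eyes, a difference of 1.95. Its eys-/- reading lay near the median of all probe sets on that array, 5.06, so the size of this difference is uncertain. The collagen chaperone serpinh1b (HSP47) read 6.17 in lrp5-/-, 7.69 in eys-/-, 6.33 in double heterozygote and 7.0 in Wildtype eyes, a difference of -1.51. These extremes had eys-/- at opposite ends of the 4 arrays. Also higher were the coagulation factor XIII gene f13a1a.1 (1.37), the hyaluronidase hyal1 (1.16, and 0.77 on its second probe set) and the microfibril gene mfap2 (1.01). Also lower were opticin, optc (-1.1), a leucine-rich proteoglycan of the vitreous, the heparan sulfate sulfotransferase hs3st3l (-1.08) and the chaperone hsp90aa1.1 (-1.07). Of 80 collagen and fibrous matrix genes 1 was higher and 1 lower, with a median of -0.01. Of 102 heat shock and chaperone genes measured, 77 were below 0 and 24.5% above 0, beside 50.9% of all measured genes above 0. Their median was -0.11, 3 were 2-fold lower, beside 0.507% of all measured genes, and none was 2-fold higher. The 3 lower genes were fkbp5, serpinh1b and hsp90aa1.1.

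Of 7 genes placed by hand under surface epithelium and cell junctions, 6 were lower, and 3 of these 6 were clustered protocadherins. The clustered protocadherin pcdh2g28, a cell adhesion gene, read 5.03 in lrp5-/-, 7.78 in eys-/-, 6.85 in double heterozygote and 6.6 in Wildtype eyes, a difference of -2.75. Of 12 genes measured in that protocadherin cluster, 3 were 2-fold lower (beside 0.507% of all measured genes) and none higher, with a median of -0.48. The other two were pcdh2ab2 (-1.03), whose second probe set gave 0.86, and pcdh2g16 (-1.01), whose second probe set gave -0.24. Clustered protocadherins share long stretches of sequence, and these values are uncertain for single genes. The lrp5-/- reading of pcdh2g28 also lay close to the median of all probe sets on that array, 5.03. The epithelial adhesion gene epcam read 6.26 in lrp5-/-, 7.42 in eys-/-, 6.28 in double heterozygote and 6.98 in Wildtype eyes, a difference of -1.16. The tight junction gene cldn11b (-1.28) and the keratin krt1-19e (-1.23) were lower too. Only frmd5b, a FERM domain gene, was higher, with 1.31. Of 44 surface epithelium genes 2 were lower and none higher, with a median of -0.03, and the summed signal of the 7 markers of cornea and surface epithelium was 12.63 in lrp5-/-, 12.78 in eys-/-, 12.48 in double heterozygote and 12.54 in Wildtype eyes.

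The 4 genes placed by hand under muscle, calcium binding and proteases were all lower in lrp5-/- eyes. This is a mixed group formed after values were seen. The parvalbumin gene pvalb3, for a calcium buffer of fast muscle, read 4.98 in lrp5-/-, 6.94 in eys-/-, 5.85 in double heterozygote and 6.09 in Wildtype eyes, a difference of -1.96. The calpain gene capn2l read 4.96 in lrp5-/-, 6.98 in eys-/-, 6.53 in double heterozygote and 5.73 in Wildtype eyes, a difference of -2.02, while its second probe set gave 0.80, the opposite direction. In lrp5-/- eyes both genes lay below the median of all probe sets on that array, 5.03, so the sizes of their differences are uncertain. The myosin light chain gene mylz3 (-1.0), whose second probe set gave -0.31, and the LIM domain gene fhl5 (-1.04) were just past 2-fold. Of 45 skeletal muscle genes measured, 37 were below 0 and 17.8% above 0, beside 50.9% of all measured genes above 0. Their median was -0.24, and 1 was 2-fold lower (pvalb3), beside 0.507% of all measured genes. The summed signal of the 7 markers of extraocular muscle was 10.61 in lrp5-/-, 10.97 in eys-/-, 10.88 in double heterozygote and 11.37 in Wildtype eyes, so it was highest in Wildtype. How much muscle came with the eyes was not tested.

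Under vessels, blood and immunity 3 of the 2-fold genes were placed by hand, 1 higher and 2 lower. The gene apold1a, whose mammalian homologue is an endothelial early response gene, read 5.77 in lrp5-/-, 7.70 in eys-/-, 7.19 in double heterozygote and 7.34 in Wildtype eyes, a difference of -1.93. It stood low in lrp5-/- eyes, with the other 3 arrays close together. The erythroid factor klf1 had the same pattern, with 7.18 in lrp5-/-, 8.31 in eys-/-, 8.17 in double heterozygote and 8.21 in Wildtype eyes, a difference of -1.13. The kinase gene pim2 was higher, with 1.08. Of 32 endothelial genes measured, apold1a was the only 2-fold gene, beside 1.43% of all measured genes, and the median was 0.00. Of 30 red cell and haem genes, 1 was 2-fold higher (hmox2a) and 1 lower (klf1), with a median of 0.16. Of 38 genes of Norrin and Wnt signalling, the pathway of lrp5, none was 2-fold different, beside 1.43% of all measured genes. With so small a share, 38 genes can be expected to hold few or none. Their median was -0.02. The largest differences there were those of ctnnb2 (0.58), axin2 (-0.41), fzd3a (-0.41) and fzd1 (-0.41). Of 56 leukocyte, MHC and complement genes, 1 was 2-fold higher, socs2, and none lower. Counts this small do not set these lists apart from the 1.43% of all measured genes.

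Membrane transport held 2 higher and 2 lower genes. The potassium channel gene kcnk5a read 5.11 in lrp5-/-, 7.43 in eys-/-, 5.05 in double heterozygote and 6.79 in Wildtype eyes, a difference of -2.32. It thus fell into a low pair, lrp5-/- and double heterozygote, and a high pair, eys-/- and Wildtype. The low pair lay near the medians of all probe sets on those arrays, 5.03 and 5.04, so the size of this difference is uncertain. The phosphate cotransporter slc34a2a was lower with -1.06. The borate transporter homologue slc4a11, which human corneal endothelium needs, read 8.91 in lrp5-/-, 7.79 in eys-/-, 9.31 in double heterozygote and 7.84 in Wildtype eyes, a difference of 1.11, and slc22a13b was higher with 1.0 and gave 0.36 on its second probe set.

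Of the 4 other transcription and RNA factors, smu1b, a homologue of a human spliceosome component, read 8.09 in lrp5-/-, 6.12 in eys-/-, 9.11 in double heterozygote and 6.77 in Wildtype eyes, a difference of 1.97. The MADS-box factor mef2ca read 8.58 in lrp5-/-, 7.07 in eys-/-, 9.71 in double heterozygote and 6.77 in Wildtype eyes, a difference of 1.5. Both were highest in the double heterozygote. The Myb factor mybl1 was higher (1.06) and the zinc finger gene znf1102 lower (-1.16).

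The 21 remaining named genes, 13 higher and 8 lower, shared no function. The largest difference of any gene with a symbol that is not clone-style was that of paqr3b, a progestin and adipoQ receptor family member, with 9.36 in lrp5-/-, 4.85 in eys-/-, 6.76 in double heterozygote and 8.30 in Wildtype eyes, a difference of 4.51. Its second probe set read 5.54 in lrp5-/- and 5.50 in eys-/- eyes, so the probe sets of this gene disagree. Also among the largest was ubap1lb, with 8.73 in lrp5-/-, 6.74 in eys-/-, 8.49 in double heterozygote and 7.69 in Wildtype eyes, a difference of 1.99. Its paralogue ubap1la lay just under the threshold at 0.99. Both paralogues were lowest in eys-/- eyes, as were 84 of the 96 higher genes. Lower genes of this kind included eva1bb, with 6.80 in lrp5-/-, 8.52 in eys-/-, 7.15 in double heterozygote and 7.23 in Wildtype eyes, a difference of -1.73, though its second probe set gave -0.10. For serf2a the values were 6.98 in lrp5-/-, 8.40 in eys-/-, 7.60 in double heterozygote and 7.66 in Wildtype eyes, a difference of -1.42. The other higher genes were aftphb, fam110a, lonrf1, tas1r1, nedd9, sft2d2b, GFRAL, jac6, cables2a, zfand5a and ubtd1a, between 1.07 and 1.55, and fam110a was 2-fold higher on both of its probe sets (1.49 and 1.05). The other lower genes were gng12a, mpv17, oscp1a, nhlrc2, ttll6 and rnaset2, between -1.25 and -1.08, with nhlrc2 giving 1.21 on its second probe set.

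Clone-style names, such as those beginning with si: or zgc:, covered 34 of the 149 genes, 22 higher and 12 lower, and they held the extremes in both directions. LOC100006764 read 7.60 in lrp5-/-, 2.57 in eys-/-, 2.90 in double heterozygote and 6.18 in Wildtype eyes, a difference of 5.03. In the other direction, zgc:171490 read 3.90 in lrp5-/-, 8.97 in eys-/-, 5.85 in double heterozygote and 6.81 in Wildtype eyes, a difference of -5.07. Each had at least 1 array far below the array medians and Wildtype between the homozygotes. In all, 10 of the 149 genes, 5 in each direction, had a lower reading that did not reach its array's median.

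**Figure D5:**
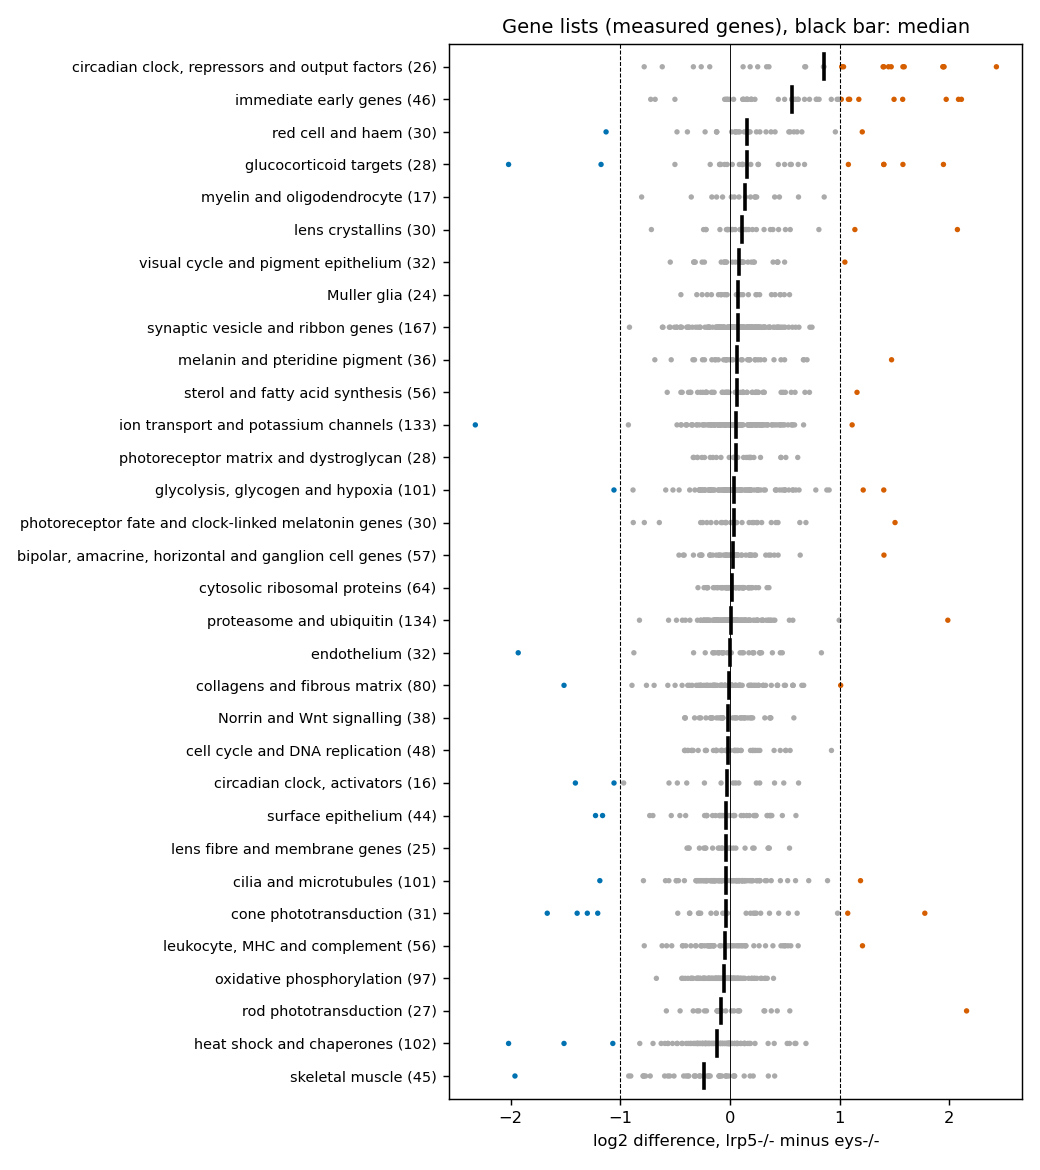
Median difference in log2 RMA signal (lrp5-/- minus eys-/-) of each fixed gene list, where points are measured members (their number is in parentheses), coloured where 2-fold higher or lower in lrp5-/- eyes, black bars are medians and dashed lines mark 2-fold. Repressors and output factors of the clock (median 0.85) and immediate early genes (median 0.56) lie apart from the other lists, whose medians run from -0.24 to 0.16.

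Of 32 gene lists, 9 held no 2-fold gene: lens fibre, photoreceptor matrix, Muller glia, synapse, myelin, oxidative phosphorylation, ribosomal, cell cycle and Norrin and Wnt genes. With 1.43% of all measured genes 2-fold, a short list can be expected to hold few or none. In all 57 of the 149 genes stood in a list. Most other lists held 1 or 2 such genes beside a median near that of all measured genes. Of 36 melanin and pteridine pigment genes, for instance, gch2 was the only 2-fold gene and the median was 0.06. Of 30 genes of photoreceptor fate and melatonin synthesis, mef2ca was the only 2-fold gene, and aanat1, the enzyme of melatonin synthesis in the retina, read 9.95 in lrp5-/-, 10.83 in eys-/-, 10.36 in double heterozygote and 10.26 in Wildtype eyes, a difference of -0.88. The homeobox gene rx1 differed by -0.78 and rx2 by -0.64.

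Sizes near the threshold did not mark a break. Just inside it on the higher side lay slc22a13b, lrit1b, mfap2, dusp5 and per2, at 1.0 to 1.02, and just outside lay ubap1la, FAT4, pim3, rnf180a and cybb, at 0.99. On the lower side mylz3, pcdh2g16, pcdh2ab2, fhl5 and rorcb lay inside, from -1.06 to -1.0, and genes from diras1b (-0.99) to lmf2a (-0.96), bmal1b among them, lay outside. Of the 149 genes, 75 were between 2-fold and 2.5-fold, and 41 were 3-fold or more (26 higher, 15 lower). When measured genes were divided into 4 bins of equal size by mean signal, the share of 2-fold genes was 2.11% in the dimmest bin, 0.996% and 0.804% in the next bins and 1.80% in the brightest. The dimmest bin held 29 higher and 26 lower genes, and the brightest 36 higher and 11 lower. Of 13 members with a second probe set, 10 had the same direction there and 2 (fam110a and foxo1a) were again 2-fold, while per2 and paqr3b differed there by 0.01 and 0.04.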

How the data were processed

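The authors deposited log2 signals of 75212 probe sets on 4 arrays, and per the submitters' processing notes RMA and version 4.0 of the Transcriptome Analysis Console were used. RMA sets arrays to one distribution, so a shift of all RNA would not be seen, and it compresses differences of dim probe sets. The sources used here do not name the genome build. Platform annotation named 21661 probe sets, 20806 with 1 symbol and 855 with several; 20323 of the 1-symbol probe sets matched the RefSeq table (assembly GRCz12tu), which updated 1 symbol and served only for names and gene order. For each of the 1365 genes with more than 1 probe set, the one with the highest mean over the 4 arrays was kept. The difference was the lrp5-/- minus the eys-/- value, and 2-fold genes were counted with Python 3.11.15 and pandas 2.3.3. Precision is limited by the number of arrays, 1 a genotype, so no p-value, SD or SE of a group is given.

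The genes, the 32 lists and the cell type markers were chosen with earlier results of these data known. Placement of genes in functional groups was by hand after values were seen, and 171 list entries caught by a shared name stem were dropped after values were seen. All 4 values are given for the 15 largest differences in each direction among genes without clone-style names; up to 4 members of each list with the largest differences, lrp5, the 5 genes on either side of each threshold and any 2-fold gene may be named. Alternatives changed the filter, the probe set, the normalization, the scale and the fold. A planned search of promoters for motifs was not run, as no promoter sequence was used here.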

Additional observations from a re-analysis of the deposited data

How the results depend on the processing

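No result reversed direction under the alternatives in which it was measured, but capn2l was not measured in 5, pcdh2ab2 in 4 and nhlrc2 in 3 of the 10 alternatives for single genes, and the second probe set of each of these had the opposite sign. The 96 higher genes became 59 when both arrays had to pass the level filter, 353 at 1.5-fold and 26 at 3-fold. The 53 lower genes became 118 with no filter on level, 25 when both arrays had to pass it, 29 with the 75th percentile as filter, 31 with 32 added to linear signals, 215 at 1.5-fold and 15 at 3-fold. Under the other alternatives, those of the probe set and the normalization included, both counts stayed within 1.5 times. Without clone-style names they were 74 and 41. Without genes whose lower reading was below the median of all probe sets on its array they were 91 and 48. These 2 settings were chosen after seeing the data. Of the 149 genes, 67 were 2-fold in the same direction under all 10 alternatives that apply to single genes, and 102 under all in which they were measured. The search of promoters for motifs was not run. No paired analysis was possible because each genotype had 1 array, and for the same reason no replicate could be left out. Dim signals limit what can be said of genes near background.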

Other observations

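Probe sets outside the named genes also differed between the arrays. Of 11171 probe sets with no gene name at the same level, 167 were 2-fold higher and 235 were 2-fold lower in lrp5-/- than in eys-/- eyes, 3.60% together, with extremes of 5.90 and -8.13 on the log2 scale. Of 333 probe sets with several symbols, 3 were 2-fold higher and 19 were 2-fold lower. Unlike the named genes, both kinds had more lower than higher probe sets.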
